A study of Mus musculus with 16 samples.

Results

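The ratio between GFP+ and GFP- cells sorted from the same pool of mice was compared between mice given cigarette smoke and mice given filtered air. All 16 Clariom S mouse arrays of the series entered this comparison, as 8 pairs of sorted fractions, and 19505 genes were measured on each. Every animal was an S100a5-tauGFP mouse, of either sex and 7 to 12 weeks old, in which green fluorescent protein (GFP) reports expression of S100a5, which encodes a calcium-binding protein and whose transcription in olfactory neurons follows their recent activity. The 24 mice made up 8 pools of 3. All were kept singly for 40 h in chambers with clean air passing at 3.1 L per min, and from 26 h onward they were stimulated for 10 s at intervals of 20 min, 4 pools with cigarette smoke and 4 with filtered air as the vehicle. The olfactory mucosa was dissociated and sorted, and each pool gave a GFP+ array and a GFP- array. The groups were therefore smoke GFP+, smoke GFP-, vehicle GFP+ and vehicle GFP- cells, with 4 arrays in each. The GFP sort depends on the same gene that marks activity, the GFP- fraction holds inactive neurons as well as other cells, and a pool averages 3 animals.

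A mature olfactory sensory neuron expresses, as a rule, 1 odorant receptor gene out of a very large family, and a smaller class expresses a trace amine-associated receptor (Taar) in its place. Receptor binding of an odorant opens a cyclic AMP cascade, and the depolarised neuron later raises activity-dependent genes such as S100a5. Receptor transcripts thus label neurons by the odorants they can detect, and a sort on an activity reporter places the transcripts of more active neurons in the GFP+ fraction. The question here was which receptors shifted between the sorted fractions when the odour was present.

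For each gene and pool the GFP- value was subtracted from the GFP+ value, both on the log2 scale, and this difference is called the within-pool ratio: a value of 1 means a level 2 times as high in GFP+ cells, and a value below 0 means a higher level in GFP- cells. The change of the ratio is the mean over the 4 smoke pools minus the mean over the 4 vehicle pools. Its test was limma's moderated test over all genes, two-sided, with Benjamini-Hochberg adjustment at 0.05. The replicates are separate pools of mice, and precision is limited by there being 4 of them per exposure. In bulk RNA of sorted cells, fewer neurons with a receptor and less receptor RNA per neuron cannot be told apart.

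S100a5, the gene that drives the sort, was higher in GFP+ cells of every pool, by 1.03, 1.29, 1.26 and 1.01 in the smoke pools and by 1.48, 1.22, 0.97 and 1.18 in the vehicle pools. These ranges overlapped. The level of S100a5 was higher after smoke in both fractions, by 0.56 in GFP+ and 0.62 in GFP- cells, with no overlap between exposures in either, and the change of its ratio was -0.07 (SE 0.16, 95% confidence interval -0.42 to 0.29, adjusted p = 0.957, exact two-sided permutation p = 0.657). The ratio of Omp, the olfactory marker protein gene of mature neurons, had a change of 0.02 (SE 0.13, interval -0.27 to 0.31, adjusted p = 0.988, exact two-sided permutation p = 0.686). Omp lay above 16, where a 16-bit scan would reach its ceiling, on every array, and S100a5 on every GFP+ array and some GFP- arrays, so the size of their ratios is uncertain. Medians over genes ran from 7.87 to 7.96 on GFP+ arrays and from 8.19 to 8.29 on GFP- arrays, and the median change of the ratio over all genes was -0.01. The mature neuron list, which checks the labelled tissue, had a mean level of 14.9 to 15.1 on the GFP+ arrays of either exposure.

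After smoke, the ratio was higher for 34 genes (0.174% of the 19505 tested) and lower for 1 gene (0.00513%), and every one of these 35 genes was an olfactory receptor. The 34 comprised 31 of 1091 odorant receptors (2.84%) and the trace amine receptors Taar2, Taar7d and Taar7f. The gene with a lower ratio was the odorant receptor Olfr518 (0.0917% of odorant receptors). At an unadjusted p below 0.05 there were 1516 genes, 632 higher and 884 lower, of which 140 and 213 were odorant receptors. The changes of the 34 ran from 1.06 to 4.49 with a median of 2.47, and in each of them all 4 smoke pools lay above all 4 vehicle pools. Over all genes, such a complete separation upward occurred for 390 genes (2%) and downward for 536 (2.75%), and among odorant receptors for 91 (8.34%) and 65 (5.96%).

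**Figure D1:**
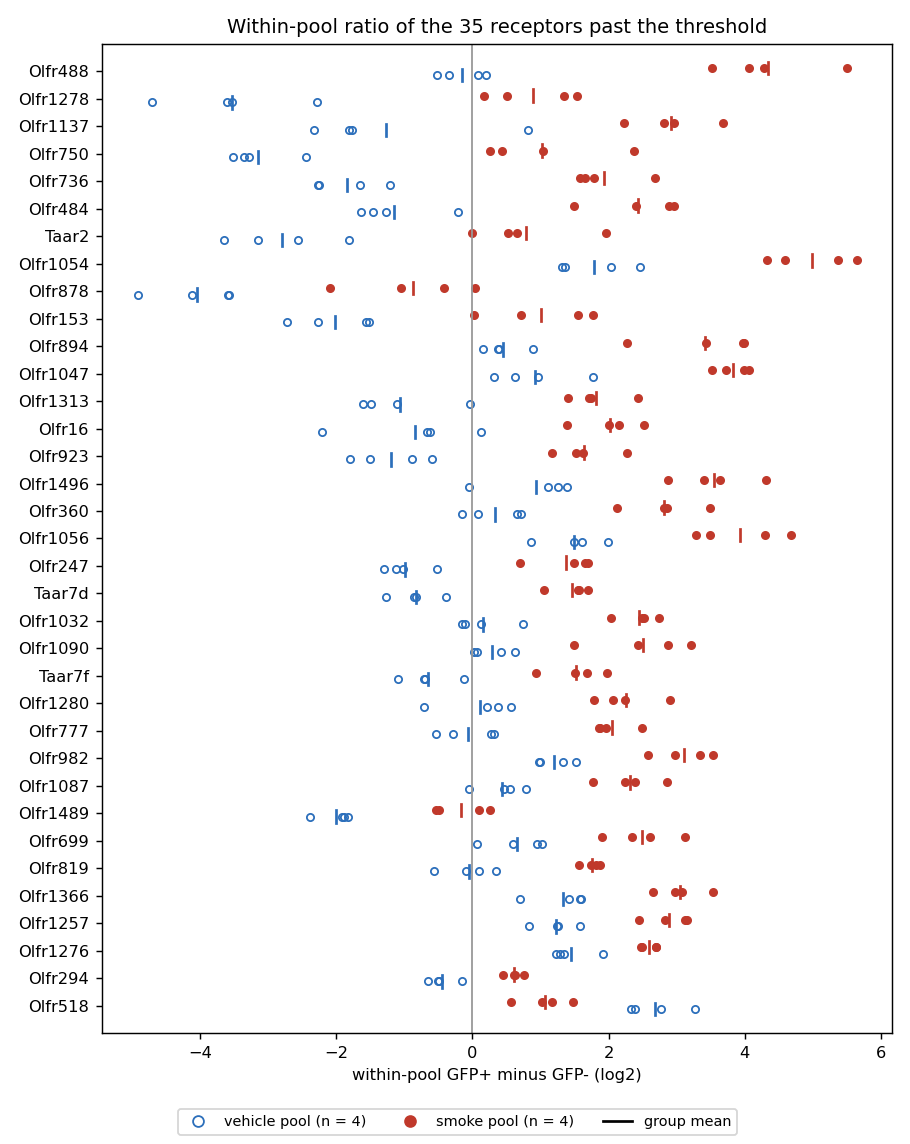
Within-pool ratio (GFP+ minus GFP-, log2) of the 35 receptors past the threshold, with 1 filled red point for each smoke pool, 1 open blue point for each vehicle pool and a short bar at each group mean (n = 4). In the 34 upper rows all smoke points lie to the right of all vehicle points, and in the row of Olfr518 they lie to the left.

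The coding starts of 3 pairs of these receptors are shown because the members of each pair are close relatives that passed the threshold together, and near-identical transcripts may share signal on an array, which was not tested. Each line gives the first 50 bases of the coding sequence, 5′ to 3′ on the gene's strand, from RefSeq (GRCm38.p6). Capitals mark the bases that both members of a pair hold at the same position, counted from the ATG, and lower case marks those that differ.
Olfr488, chr7:108256087-108256136, minus strand: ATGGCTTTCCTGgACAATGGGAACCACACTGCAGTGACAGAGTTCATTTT
Olfr484, chr7:108125212-108125261, minus strand: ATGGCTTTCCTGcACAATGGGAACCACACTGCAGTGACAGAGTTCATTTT
Olfr1278, chr2:111292270-111292319, plus strand: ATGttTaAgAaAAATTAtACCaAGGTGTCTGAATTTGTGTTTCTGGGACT
Olfr1276, chr2:111257117-111257166, plus strand: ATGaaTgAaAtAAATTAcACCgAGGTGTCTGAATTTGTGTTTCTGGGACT
Taar7d, chr10:24027222-24027271, plus strand: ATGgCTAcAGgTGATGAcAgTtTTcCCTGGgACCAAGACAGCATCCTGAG
Taar7f, chr10:24049510-24049559, plus strand: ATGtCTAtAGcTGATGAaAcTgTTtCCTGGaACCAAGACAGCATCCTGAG
The first pair matched at 49 of 50 bases, the second at 43 and the third at 42. Of the 35 receptors past the threshold, 29 had an entry in the sequence table used.

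Olfr488 and its relative Olfr484, both of receptor subfamily MOR204, had large changes of the ratio. Olfr488 had ratios of 4.06, 5.50, 4.29 and 3.52 in the smoke pools and of -0.52, 0.08, -0.34 and 0.20 in the vehicle pools. Its level was thus similar in both fractions under vehicle and higher in GFP+ cells in all smoke pools. The change was 4.49 (SE 0.37, adjusted p = 0.00298), a 22.5-fold difference of ratios. Most of it came from the GFP- side, where the mean level was 13.87 under vehicle and 10.53 after smoke, against 13.73 and 14.88 in GFP+ cells. Olfr484, with a coding start that differs from that of Olfr488 at 1 of 50 bases, had ratios of 2.41, 2.88, 2.96 and 1.49 after smoke and of -1.46, -1.64, -0.22 and -1.28 under vehicle. Its change was 3.59 (SE 0.38, adjusted p = 0.00651), and here the GFP+ level moved more (2.15) than the GFP- level (-1.44).

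A group of receptors lay strongly on the GFP- side under vehicle and near or above equality after smoke. Olfr1278 had ratios of -4.70, -3.60, -3.53 and -2.28 in the vehicle pools and of 0.17, 1.53, 1.34 and 0.51 in the smoke pools. The change of 4.42 (SE 0.48, adjusted p = 0.00651) was mostly a higher GFP+ level, by 3.97, with a GFP- difference of -0.44. Olfr750 had vehicle ratios of -3.52, -3.36, -3.28 and -2.44 and smoke ratios of 0.44, 2.38, 1.03 and 0.25, a change of 4.18 (SE 0.44, adjusted p = 0.00651). All smoke values of Olfr750 lay above 0 and all vehicle values below -2, with smoke pool 2 standing highest. Olfr736 had vehicle ratios of -2.27, -2.25, -1.65 and -1.21, all below 0, and smoke ratios of 1.66, 1.59, 2.69 and 1.79, all above 0. Its change was 3.78 (SE 0.31, adjusted p = 0.00298), made of 3.24 in GFP+ cells and -0.54 in GFP- cells.

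Olfr153 had vehicle ratios of -1.56, -2.72, -1.52 and -2.27 and smoke ratios of 0.02, 1.77, 0.72 and 1.55, a change of 3.03 (SE 0.40, adjusted p = 0.0193). Olfr878 stayed mostly on the GFP- side: its vehicle ratios were -4.92, -4.12, -3.59 and -3.57 and its smoke ratios -1.05, 0.04, -0.42 and -2.09. Its change of 3.17 (SE 0.45, adjusted p = 0.0286) was a GFP+ level higher by 3.03, beside a GFP- level of 12.75 under vehicle and 12.61 after smoke. The calls of these 2 receptors did not hold in every fit with 1 pool left out. Their changes stayed at 2.78 to 3.36 for Olfr153 and 2.86 to 3.57 for Olfr878. Olfr153 lost its call without smoke pool 2 or 4 or vehicle pool 2 or 4 (adjusted p up to 0.0763), and Olfr878 without any pool other than smoke pool 4 (up to 0.0960).

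Other receptors lay on the GFP+ side in every vehicle pool and further to that side after smoke. Olfr1054 had vehicle ratios of 1.31, 2.46, 1.35 and 2.04 and smoke ratios of 4.33, 5.37, 5.64 and 4.60. Its mean level was 8.40 in vehicle GFP- cells and 5.50 in smoke GFP- cells, while GFP+ levels were 10.19 and 10.48. The smoke GFP- values did not exceed, on any of 4 arrays, a level set by the vomeronasal receptors, which belong to another organ. This vomeronasal level is the 95th percentile of 319 vomeronasal receptor genes on an array, 6.14 to 6.78. With lower values raised to it, the estimated change of Olfr1054 was 2.43, a 5.39-fold higher ratio after smoke (adjusted p = 0.0428 with raised values). Without raising, the change was 3.19 (SE 0.35, 95% confidence interval 2.42 to 3.97, adjusted p = 0.00651). In the fit with raised values, adjusted p also rose for receptors with no value at that level. Taar2, for example, kept its change of 3.58 but went from 0.0157 to 0.0858. Passing or not passing with raised values is therefore not a measure of low signal alone. Olfr894 had vehicle ratios of 0.38, 0.16, 0.38 and 0.89 and smoke ratios of 3.99, 3.97, 3.44 and 2.28, a change of 2.97 (SE 0.36, adjusted p = 0.0101) that reached an adjusted p of 0.0515 without smoke pool 2. Olfr1047 had vehicle ratios of 1.76, 0.31, 0.63 and 0.96 and smoke ratios of 3.52, 4.06, 3.99 and 3.73, a change of 2.91 (SE 0.29, adjusted p = 0.00651). For Olfr894 and Olfr1047, 2 of the smoke GFP- arrays lay at or below the vomeronasal level, and the changes with raised values were 2.90 and 2.78 (adjusted p = 0.0428 each). The GFP- part was the larger in Olfr1054 and Olfr894, while Olfr1047 was split nearly evenly, with 1.42 in GFP+ and -1.49 in GFP- cells (-1.35 with raised values).

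Olfr1137 varied more between vehicle pools than the other receptors described singly (SD 1.41). Its vehicle ratios were -1.76, 0.81, -1.81 and -2.33, and its smoke ratios were 2.22, 3.67, 2.96 and 2.81. The groups did not overlap, with vehicle pool 2 standing far above the other vehicle pools. The change was 4.19 (SE 0.61, adjusted p = 0.0314). All 4 smoke GFP- values lay at or below the vomeronasal level. With raised values the estimated ratio of Olfr1137 was 10.3-fold higher, which did not pass in that fit (adjusted p = 0.194). Its call was lost without smoke pool 2, 3 or 4 or vehicle pool 1, 3 or 4 (adjusted p up to 0.134).

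Olfr518 was the receptor with a lower ratio. Its vehicle ratios were 3.26, 2.33, 2.39 and 2.76 and its smoke ratios 1.17, 0.57, 1.47 and 1.03, so all smoke pools stood below all vehicle pools and it remained on the GFP+ side. The change was -1.63 (SE 0.25, adjusted p = 0.0480), made of -0.47 in GFP+ and 1.15 in GFP- cells. All 4 vehicle GFP- values and 1 smoke GFP- value lay at or below the vomeronasal level. The change was -0.91 with the vehicle GFP- values raised to it and -0.99 with all values raised, which did not pass (adjusted p = 0.250). The call was lost with any of the 8 pools left out (adjusted p up to 0.168).

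Of the 15 trace amine receptors measured, 3 passed, all with a higher ratio. Taar2 had vehicle ratios of -3.15, -3.65, -1.82 and -2.56 and smoke ratios of -0.01, 0.53, 1.96 and 0.66. Its change was 3.58 (SE 0.46, adjusted p = 0.0157), with GFP+ cells higher by 2.51 and GFP- cells different by -1.07, and it lost its call without smoke pool 2 or 4 or vehicle pool 1, 2 or 4 (adjusted p up to 0.0723). Taar7d had vehicle ratios of -1.27, -0.86, -0.83 and -0.38 and smoke ratios of 1.05, 1.69, 1.55 and 1.57, a change of 2.30 (SE 0.22, adjusted p = 0.00651). Taar7f, its close relative above, had vehicle ratios of -0.72, -1.10, -0.69 and -0.12 and smoke ratios of 0.93, 1.98, 1.68 and 1.51, a change of 2.18 (SE 0.26, adjusted p = 0.0101). Every vehicle value of these 3 receptors was below 0, and of their smoke values only that of Taar2 in smoke pool 1 was. Other Taar7 members did not pass: Taar7e was at 0.49 (adjusted p = 0.741), Taar7b by 0.30 (0.802) and Taar7a by -0.23 (0.919). The remaining trace amine receptors lay between -1.18 (Taar3, adjusted p = 0.569) and 0.70 (Taar8b, 0.723). The median of the 15 was 0.17, against -0.01 for all genes.

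The higher ratios had a GFP+ part and a GFP- part. In all 34 the mean GFP+ level was higher and the mean GFP- level lower after smoke, with median differences of 1.35 and -1.05. These parts add up to the ratio by which the 34 passed and are given as a description. The GFP+ part was the larger in 20 receptors, and their median vehicle ratio was -1.02, with 15 below 0. The GFP- part was the larger in 14 receptors, with a median vehicle ratio of 0.69 and 4 below 0: Olfr488, Olfr1137, Olfr1054, Olfr894, Olfr1047, Olfr1496, Olfr360, Olfr1056, Olfr1032, Olfr777, Olfr982, Olfr819, Olfr1366 and Olfr1257. The vehicle ratio and both parts use the same vehicle levels, so the vehicle ratios of the 20 and the 14 are not separate from this split. With values raised to the vomeronasal level the GFP- part was the larger in 12, since it no longer was in Olfr1047 and Olfr1032. Olfr982 had a GFP+ difference of 0.14 and a GFP- difference of -1.76.

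**Figure D2:**
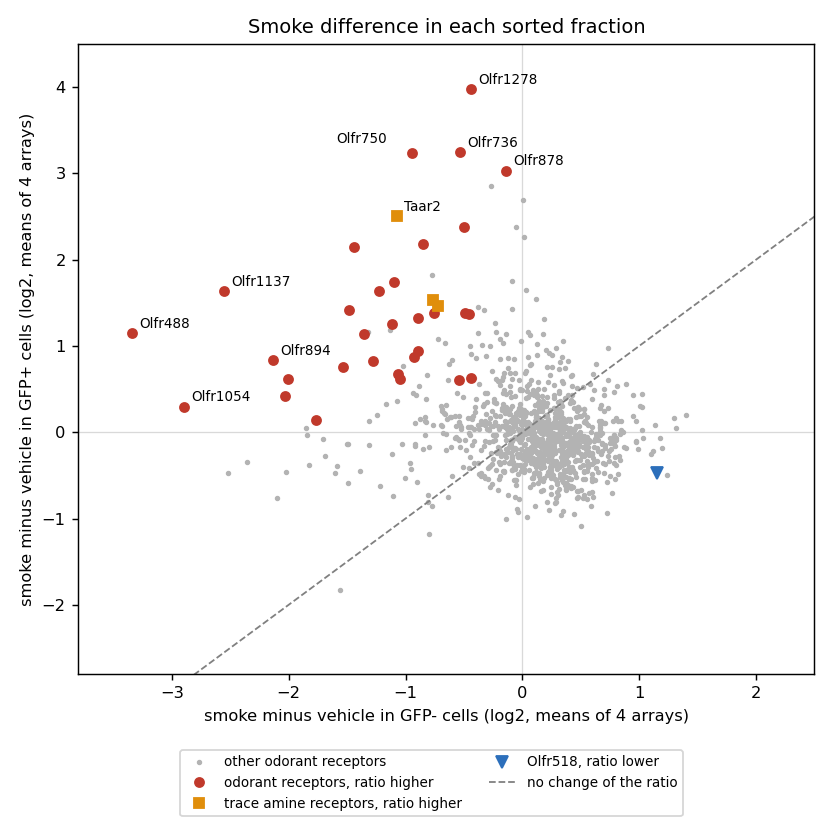
Smoke minus vehicle (log2, means of 4 arrays) in GFP- cells on the horizontal axis and in GFP+ cells on the vertical axis, for each odorant receptor (grey) with the 31 odorant receptors (red) and 3 trace amine receptors (orange) whose ratio was higher and Olfr518 (blue) marked. The marked receptors with a higher ratio lie in the upper left, from Olfr1278 with a GFP+ difference of 3.97 to Olfr488 with a GFP- difference of -3.34, and the dashed line is where the ratio does not change.

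Among the 34, the vehicle ratio was below 0 in 19, and 17 of these were above 0 after smoke. The exceptions were Olfr878 and Olfr1489, the latter with a mean ratio of -2.01 under vehicle and -0.17 after smoke. The median ratio of the 34 was -0.10 under vehicle and 2.28 after smoke. Over all 1091 odorant receptors the median ratio was 0.75 and 0.62, and 30.0% had a vehicle ratio below 0. The called odorant receptors had a median level of 10.0 over the 16 arrays, against 9.65 for the other odorant receptors.

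**Figure D3:**
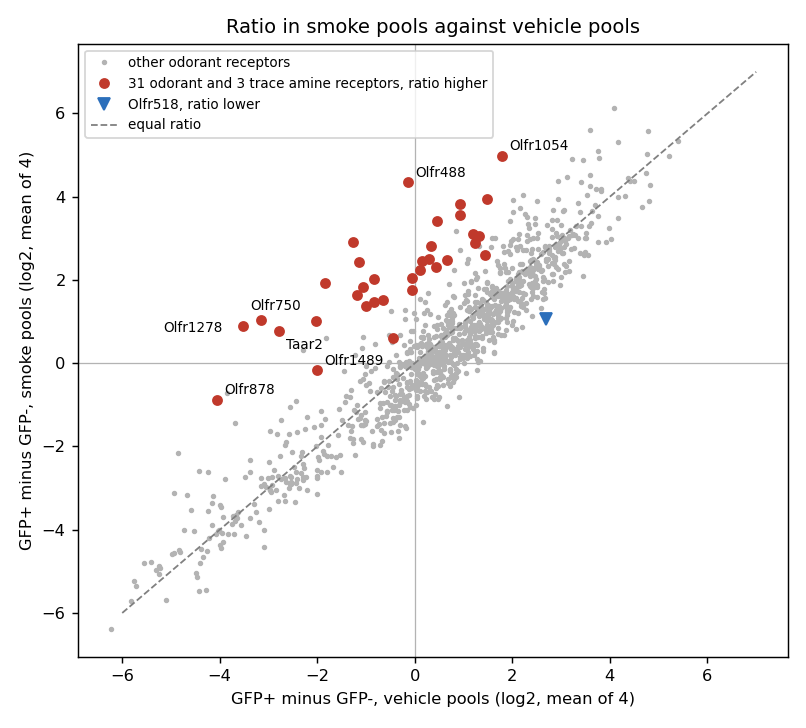
Mean within-pool ratio (GFP+ minus GFP-, log2) of each odorant receptor and of 3 trace amine receptors in the 4 vehicle pools (horizontal) and the 4 smoke pools (vertical), with the 31 odorant and 3 trace amine receptors of higher ratio in red, Olfr518 in blue and the line of equal ratios dashed. Olfr878 and Olfr1489 are the red points that stay below 0 after smoke.

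The remaining 20 odorant receptors that passed had changes from 1.06 to 2.88. The larger were Olfr1313 (2.88, SE 0.35, adjusted p = 0.0101), Olfr16 (2.86, SE 0.44, adjusted p = 0.0449), a receptor also known as MOR23, and Olfr923 (2.84, SE 0.31, adjusted p = 0.00651). Olfr1032 was at or below the vomeronasal level in smoke GFP- cells on all 4 arrays. With raised values its estimated ratio was 2.76-fold higher, which did not pass (adjusted p = 0.143). Olfr16, with no value at or below that level, also had an adjusted p of 0.143 in that fit. The change of Olfr294, 1.06, has no interpretable level: with values raised to the vomeronasal level it was 0.04. No value of the 35 receptors exceeded 16.

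With 1 pool left out at a time, 17 of the 35 receptors kept their call in all 8 fits. These were Olfr488, Olfr1278, Olfr750, Olfr736, Olfr484, Olfr1054, Olfr1047, Olfr923, Olfr360, Olfr247, Olfr1032, Olfr777, Olfr982, Olfr1489, Olfr819, Taar7d and Taar7f. The other 18 lost it in at least 1 fit. Olfr1313 lost it without smoke pool 2 (adjusted p = 0.0540), and Olfr1056 without smoke pool 2 or vehicle pool 1, 2 or 3 (up to 0.109). Olfr1087 lost it without smoke pool 2 or 4 or vehicle pool 1, 2 or 4 (up to 0.0856), and Olfr1257 without smoke pool 2, 3 or 4 or vehicle pool 2 or 4 (up to 0.0725). Olfr1496 lost it without smoke pool 2, 3 or 4 or vehicle pool 1 or 4 (up to 0.0978), and Olfr1280 without smoke pool 1, 2 or 4 or vehicle pool 2, 3 or 4 (up to 0.103). Olfr16 kept it only without vehicle pool 1 or 3 (up to 0.173 otherwise). Olfr1090, Olfr1366 and Olfr699 kept it only without smoke pool 1 (up to 0.160, 0.0978 and 0.184), Olfr1276 only without vehicle pool 1 (up to 0.184) and Olfr294 only without vehicle pool 3 (up to 0.125). No leave-one-out fit turned the direction of any of the 35. The count of genes with a higher ratio was 17 without smoke pool 2, 21 without smoke pool 4 and 21 without vehicle pool 2.

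Fitting the 16 arrays as unpaired groups, without the pool as a block, called 33 genes higher and 1 lower, all receptors, and 25 of these 34 were among the 35. The lower gene in that fit was Olfr24 (-1.39, adjusted p = 0.0473, and 0.117 with the pool as a block). The receptors that passed only with the block included Olfr1047 (0.0722 without it), Olfr247 (0.0767) and Olfr518 (0.120).

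Relatives of the called receptors were grouped by the MOR subfamily names among the RefSeq synonyms, which 1056 of the 1091 odorant receptors carried, in 221 subfamilies. The called odorant receptors with such a name, 30 of 32, fell in 23 subfamilies. In 4 subfamilies 2 or more members passed, 11 receptors in all. In MOR188, 4 of 5 members passed: Olfr1054 (3.19), Olfr1047 (2.91), Olfr1090 (2.22) and Olfr1087 (1.88). The fifth, Olfr1061, was at 0.19 (SE 0.22, adjusted p = 0.899). In MOR265 both members passed, Olfr247 (2.37) and Olfr819 (1.81). In MOR245, 3 of 21 passed, Olfr1278, Olfr1313 and Olfr1276, with a subfamily median of 0.41 and a range from -1.03 to 4.42. In MOR204, 2 of 31 passed, Olfr488 and Olfr484, with a median of 0.32. Close relatives were thus found on both sides of the threshold. Not passing did not mean no change: 16 of 21 members of MOR245 and 24 of 31 of MOR204 were above 0. Over all odorant receptors 36.3% were. These counts include the called members by which the subfamilies were picked. Olfr750 was the only called member among 16 of MOR103, whose median was -0.59, and Olfr736 among 13 of MOR106, whose median was 0.16.

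**Figure D4:**
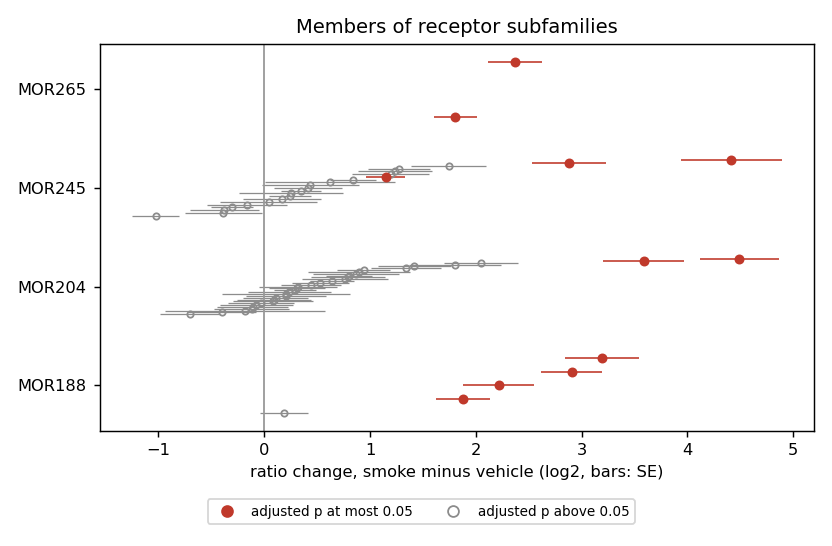
Change of the within-pool ratio (smoke minus vehicle, log2, bars are SE) for every measured member of the 4 subfamilies with 2 or more called receptors; filled red points passed the threshold and open grey points did not. In MOR188 a single member, Olfr1061 at 0.19, stands apart from the 4 called ones.

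Neighbours on the chromosome were compared. Of all 1091 odorant receptors, 2.84% passed with a higher and 0.0917% with a lower ratio. The share of all receptors with a called neighbour was not computed. Of the 32 called odorant receptors, 4 had a directly neighbouring receptor gene that was also called: Olfr1054 with Olfr1056, and Olfr819 with Olfr247. On chromosome 2, Olfr1277, between Olfr1276 (1.15) and Olfr1278 (4.42), was at 3.12 and did not pass (SE 0.56, adjusted p = 0.102). Olfr1279, next to Olfr1278 on the other side, was at 0.04 (SE 0.46), and Olfr1280 beyond it, which passed, at 2.14.

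Most odorant receptors did not pass the test. The median change over the 1091 was -0.22, with 36.3% above 0, against a median of -0.01 and 48.3% over all genes. Changes above 1 were found for 97 odorant receptors (8.89%) and changes below -1 for 71 (6.51%), against 123 (0.631%) and 76 (0.39%) of all genes. The 5th and 95th percentiles were -1.06 and 1.47 for odorant receptors and -0.47 and 0.47 for all genes. The 319 vomeronasal receptors, of a similar gene type and low level here, had a median of -0.04 and none passed.

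No gene outside the odorant and trace amine receptors passed, so the following lists are given by their medians and by the 2 members with the smallest p. Values in parentheses after each are adjusted p. The mature neuron list had a median of -0.08 (30 genes), with Pde4a, a cyclic AMP phosphodiesterase, at -0.33 (adjusted p = 0.626) and Umodl1 at -0.29 (0.664). Olfactory transduction had a median of -0.07 (22 genes), with Pde4a again and Gnal, the olfactory G protein subunit, at -0.21 (0.773). Immature neurons had a median of 0.00 (20 genes), with Crmp1, a growth cone protein, at -0.59 (0.451) and Stmn1, a microtubule regulator, at 0.47 (0.485).

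Genes that olfactory activity raises had a median of -0.07 (13 genes), with Ptprn at -0.46 (0.663) and Dlg2 at -0.32 (0.679). That median is the value of S100a5, the gene that drives the sort, so it is not separate from it. Genes that activity lowers had a median of -0.26 (6 genes, none above 0), with the axon guidance genes Efna5 at -0.57 (0.418) and Plxna1 at -0.41 (0.485). Immediate early genes had a median of 0.09 (26 genes), with Atf3 at 0.72 (0.263) and Per1 at -0.41 (0.545). Receptor trafficking and choice factors had a median of -0.06 (20 genes), with Ehmt1 at -0.45 (0.520) and Emx2 at -0.34 (0.699). The GC-D and Ms4a neuron list had a median of 0.11 (20 genes), with Pde2a at 0.36 (0.667) and Cnga3 at -0.27 (0.668).

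Genes of chemical and cell stress did not pass either. NRF2 targets, the antioxidant response, had a median of 0.13 with 21 of 24 above 0; Cbr2 was at 0.79 (0.333) and Gstm1 at 0.53 (0.498). The mean ratio of the list was -0.36 to -0.14 in smoke pools and -0.48 to -0.38 in vehicle pools, and both named genes also mark sustentacular cells. Pir, named after its values were seen, had a ratio of 0.91 after smoke and 0.85 under vehicle (change 0.06, SE 0.17, interval -0.33 to 0.45, adjusted p = 0.967). For aryl hydrocarbon receptor targets the median was 0.19 (9 genes). Ahr, the receptor gene itself, was at -0.54 (0.476), and Cyp1a2, also a sustentacular marker, at 0.48 (0.599). The unfolded protein list had a median of 0.03 (15 genes), with Atf3 at 0.72 (0.263) and Atf5 at -0.26 (0.753). Heat shock proteins had a median of 0.08 (10 genes), with Cryab at 0.71 (0.356) and Hsph1 at -0.27 (0.725). The p53 list had a median of 0.15 (12 genes), with Zmat3 at -0.64 (0.485) and Pmaip1 at 0.83 (0.519). Inflammation had a median of 0.33 (21 genes), with Saa3 at 0.57 (0.328) and Cxcl2 at 0.77 (0.519). Pmaip1 and Cxcl2 lay at or below the vomeronasal level on every GFP+ array. With raised values their changes were 0.44 and 0.81.

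Lists of other cells and of housekeeping genes had medians above 0 beside the receptor result. The list of sustentacular cells, which support the neurons, had a median of 0.48 with 18 of 19 above 0. Its mean ratio was -0.55, -0.31, -0.55 and -0.21 in the smoke pools and -0.91, -0.76, -0.99 and -0.67 in the vehicle pools, so the exposures did not overlap. In GFP+ cells its mean level ran from 9.67 to 10.49 after smoke and from 9.59 to 9.91 under vehicle, and in GFP- cells from 10.23 to 10.70 and from 10.35 to 10.76. Sec14l3 was at 1.03 (adjusted p = 0.251) and Cbr2 at 0.79 (0.333). Microvillar cells had a median of 0.27 (15 genes) with mean ratios of -2.18 to -2.06 after smoke and -2.51 to -2.32 under vehicle. Pou2f3, their chemosensory regulator, was at 0.76 (0.508) and Trpc6 at 0.53 (0.663). Trpc6 lay at or below the vomeronasal level on every array, so its change has no interpretable level. Glands and respiratory epithelium had a median of 0.33 (20 genes), with Bpifb6 at 1.02 (0.263) and Scgb1c1 at 0.86 (0.415). Ribosomal proteins had a median of 0.27 with 54 of 60 above 0; Rps18 was at 0.52 (0.411) and Rpl32 at 0.59 (0.466).

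The immune list had a median of 0.26 (21 genes), with H2-Aa at 0.63 (0.545) and C1qa at 0.45 (0.622). Globose basal cells had a median of 0.23 (11 genes), with Hes6 at 0.46 (0.692) and Sox2 at 0.43 (0.745). Horizontal basal cells had a median of 0.15 (11 genes), with Cav1 at -0.33 (0.641) and Itgb4 at 0.38 (0.800). Endothelial and stromal genes had a median of 0.10 (13 genes), with Dcn at 0.73 (0.356) and Pecam1 at 0.68 (0.499). Ensheathing glia had a median of 0.12 (7 genes), with Apod at 0.38 (0.724) and Ngfr at 0.15 (0.902). The red blood cell genes Alas2 and Slc4a1 were at 0.47 (0.881) and 0.18 (0.971). Oxidative phosphorylation had a median of 0.08 (94 genes), with Ndufb6 at 0.43 (0.563) and Cox7a2l at 0.35 (0.608). Vmn1r68 was at 0.75 (0.128) and Vmn2r21 at -0.67 (0.206). Both of these, and also Cav1, Itgb4 and Cnga3, lay at or below the vomeronasal level on every array. Their changes have no interpretable level. Pecam1 lay at or below it on every GFP+ array, Hes6 on every vehicle and 3 smoke GFP+ arrays, and Ngfr on most arrays. With raised values these 3 were at 0.58, 0.51 and 0.20.

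**Figure D5:**
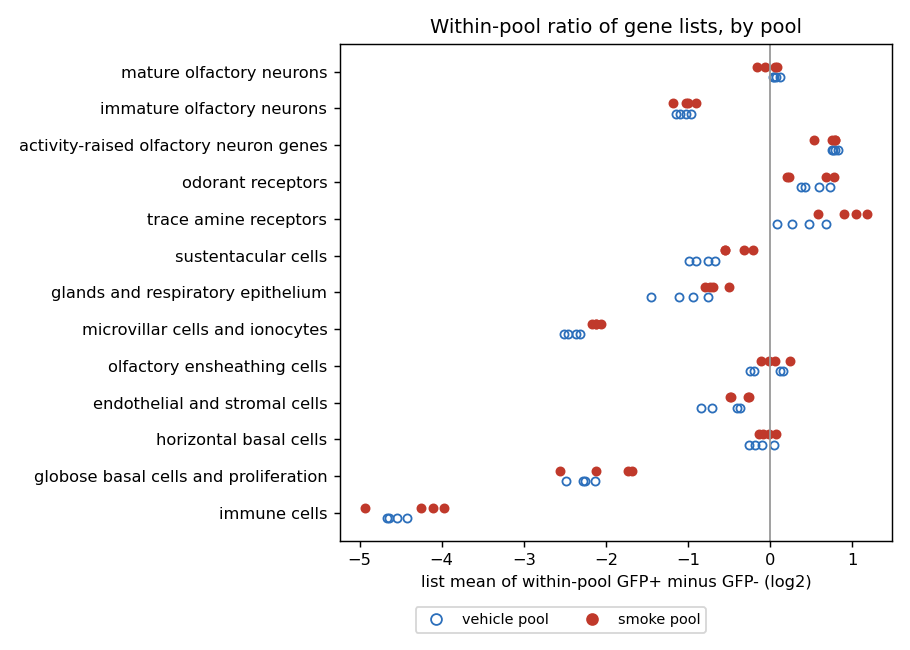
Mean within-pool ratio (GFP+ minus GFP-, log2) of each of 13 gene lists in each smoke pool (filled red) and vehicle pool (open blue). The sustentacular and microvillar lists separate the exposures, at -0.55 to -0.21 against -0.99 to -0.67 and at -2.18 to -2.06 against -2.51 to -2.32, while mature neuron genes lie near 0 in both.

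The receptor result was also computed with the sustentacular ratio in view. With the sustentacular list's mean ratio as a covariate no gene passed (892 at an unadjusted p below 0.05). The lowest adjusted p among the 35 receptors was 0.221. All 35 receptors kept their direction in that fit, the higher ones at 1.01 to 4.69, with Olfr488 at 4.13, Olfr736 at 3.92 and Olfr484 at 4.69. The covariate itself separates the exposures, so its part and that of smoke cannot be told apart in this fit. With smoke pools 2 and 4 left out, 3 receptors passed: Olfr488 (4.32, adjusted p = 0.00445), Olfr750 (3.89, 0.0273) and Olfr894 (3.26, 0.0252). The sustentacular median was then 0.32. Pool 1 of each exposure had little signal of Y-linked genes on most of its arrays, and with both left out 14 genes passed, 12 odorant receptors among them; 13 of the 14 were among the 35. Among Y-linked genes, Uty was at -0.67 (SE 0.73, adjusted p = 0.888) and Kdm5d at -0.19 (0.922).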

How the data were processed

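The authors deposited 1 table of log2 values per probe set for the 16 arrays, and Affymetrix Expression Console is named in the submitters' processing notes; no source used here gives its version or algorithm. The sorted values of any 2 arrays differed by at most 0.346, and 0.946% of values exceeded 16, so folds are those of the deposited scale. The series' design text names bourgeonal, but the title and the sample titles name cigarette smoke, which is used here.

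Of 28846 probe sets, 19572 carried 1 gene symbol, 0 several, 2615 none and 6659 were controls. A gene with several probe sets (55) took the one with the highest mean, which left 19505 genes. GFP- was subtracted from GFP+ within each pool, since the titles give both fractions of a number as 1 pool of 3 mice; residuals of the fractions correlated at 0.045 to 0.22. The 4 smoke and 4 vehicle differences were compared in R 4.3.3 with limma 3.58.1 (lmFit, eBayes; tested on simulated data), adjusted over all genes at 0.05. Single genes had an exact permutation test, whose smallest p is 0.0286.

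Members and lists were chosen with earlier results of these data known. Named by rule were S100a5, Omp, up to 12 called genes each way by size, called trace amine receptors, other called genes that are not receptors, and from each list up to 3 called genes, or the 2 of lowest p where none was called. Other called receptors are named as members of a counted group. Alternatives changed the block, pools, scaling, low and high values, probe sets, variance model, covariates and threshold. Raised values are those lifted to the array's vomeronasal level where they lay below it. Plots used matplotlib 3.10.9 under Python 3.11.15.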

Additional observations from a re-analysis of the deposited data

Results flagged for a closer look

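Of 136 groups of 4 pools examined for a pool far from the other 3, 7 had one, and chance gives such a pool in about 1 of 20 groups. In smoke pool 2, Cyp1a2 had a within-pool ratio of -0.040 (others -0.72 to -0.61), Cxcl2 of -4.27 (others -3.78 to -3.71) and Cav1 of -0.17 (others 0.08 to 0.12). Apod stood at -0.37 in smoke pool 3 (others 0.38 to 0.46) and Crmp1 at 0.041 in vehicle pool 2 (others 0.35 to 0.41). Of the Y-linked genes, Uty stood at -3.04 in smoke pool 1 (others 0.37 to 0.68) and Kdm5d at -0.22 in vehicle pool 1 (others 0.29 to 0.40). None of these genes passed the threshold. Several of these ratios rest on low signal. Cav1 lay at or below the vomeronasal level on every array, and Cxcl2 on every GFP+ array. Kdm5d did so in both fractions of vehicle pool 1, and Uty in GFP+ cells of smoke pool 1 (3.52). With raised values the change of Uty was -0.05.

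The smoke effect differed between GFP+ and GFP- cells, by the test of the ratio itself, for the 15 receptors described singly. The differences on the log2 scale were 4.49 for Olfr488, 4.42 for Olfr1278, 4.19 for Olfr1137, 4.18 for Olfr750, 3.78 for Olfr736, 3.59 for Olfr484 and 3.58 for Taar2. They were 3.19 for Olfr1054, 3.17 for Olfr878, 3.03 for Olfr153, 2.97 for Olfr894, 2.91 for Olfr1047, 2.30 for Taar7d, 2.18 for Taar7f and -1.63 for Olfr518.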

How the results depend on the processing

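Against 34 genes higher, 1 lower, 31 odorant receptors higher and 1 lower, the fit without a replicate block gave 33, 1, 30 and 1. The replicate block across exposures gave 43, 0, 40 and 0, with 31 of its 43 calls shared; Olfr518 (adjusted p = 0.0554), Olfr153 (0.0993), Olfr294 (0.155) and Olfr1276 (0.167) did not pass in it. Same-numbered pools of the exposures correlated at 0.11, -0.06, 0.15 and -0.08 in their deviations, and pool 1 of each was low in Y-linked genes. The labels do not say that a number is shared across exposures, and it was not taken as a pairing. Centred differences gave 32, 0, 29 and 0, a second quantile normalization 34, 2, 31 and 2, and genes above the vomeronasal level 36, 3, 33 and 2. Values raised to that level gave 20, 3, 16 and 0, including 5 genes that are not receptors, in a fit where some genes have no variance. The trend and robust setting gave 31, 0, 28 and 0, the immune covariate 39, 0, 36 and 0, and the sustentacular covariate 0 for each. Without smoke pools 2 and 4 the counts were 3, 0, 3 and 0, without pool 1 of both exposures 14, 0, 12 and 0, and at an adjusted p of 0.10 they were 40, 3, 37 and 3. Leaving out 1 pool gave 17 to 34 genes higher, 0 to 2 lower, 15 to 31 odorant receptors higher and 0 to 2 lower. Fewer pools enter these fits. Leaving out genes above 16 or averaging probe sets left all 4 counts the same. For the other settings the cause was not tested.

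No called receptor turned its direction in any setting. For Olfr294 with raised values this carries no meaning, since its 0.036 came from the array levels alone. Genes that did had adjusted p far above 0.05. Slc4a1 was at -0.15 without smoke pool 1, -0.20 without smoke pool 4, -0.20 without smoke pools 2 and 4, -0.12 without pool 1 of both exposures, -0.57 with the sustentacular and -0.55 with the immune covariate. Without smoke pool 1, Uty was at 0.21 and Kdm5d at 0.040. Pir was at -0.0017 without smoke pool 2, -0.0081 without smoke pool 3, -0.0037 without vehicle pool 2 and -0.042 after quantile normalization. S100a5 was at 0.022 and Omp at -0.00016 without vehicle pool 1, and at 0.062 and -0.0083 without pool 1 of both exposures. Raised to the vomeronasal level, Vmn2r21, Cav1 and Cnga3 were each at 0.036, the same value as Olfr294, because all their values were replaced by that level. Over the fits with 1 pool left out, the highest value was 0.75 for Slc4a1, 0.16 for Pir and 0.060 for Omp, and the lowest was -1.03 for Uty and -0.41 for Kdm5d. With the sustentacular covariate Gstm1 was at -0.049, Itgb4 at -0.24, Apod at -0.15, Ngfr at -0.048, C1qa at -0.015 and Alas2 at -0.37; Ngfr was at -0.065 without smoke pools 2 and 4. Signal near the vomeronasal level limits the ratios of Olfr1137, Olfr1054, Olfr1032, Olfr518 and Olfr294.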

Other observations

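Just outside the threshold, with an adjusted p between 0.05 and 0.10, lay 8 odorant receptors, named after their values were seen. The ratio was higher for Olfr875 (2.60, adjusted p = 0.0617), Olfr855 (2.32, 0.0763), Olfr490 (2.05, 0.0784), Olfr1045 (1.91, 0.0951), Olfr1272 (1.69, 0.0618) and Olfr1135 (1.62, 0.0678). It was lower for Olfr1459 (-1.35, 0.0782) and Olfr544 (-1.30, 0.0763). In Olfr490, a relative of Olfr488 in subfamily MOR204, the ratio was 4.08 under vehicle and 6.13 after smoke, and the difference lay in GFP- cells (-2.52), with GFP+ cells at -0.47. Olfr1152 had lower mean levels after smoke in both fractions, by -1.83 in GFP+ and -1.56 in GFP- cells, and its ratio differed by -0.27 (adjusted p = 0.897).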
